A study of Mus musculus with 36 samples.

Results

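The 5 genes described here code for molecules with which vessel walls catch white blood cells: intercellular adhesion molecules 1 and 2 (Icam1, Icam2), vascular cell adhesion molecule 1 (Vcam1), E-selectin (Sele) and P-selectin (Selp). They were chosen by name as a family, with earlier results of these data known, and are 5 of the 24061 gene names in the files. Each name had a single RefSeq transcript row, and all 5 passed the main filter on low counts in each cell type's fit and in the fit of all libraries. RNA was sequenced from wild-type C57BL/6J mouse hearts that were irradiated once with 12 Gy (RT), using a microirradiator for small animals, or sham treated. Endothelial cells, myocytes and fibroblasts were profiled 6 hours, 7 days and 28 days later, which gives 18 groups of 2 libraries and 36 libraries in all. Nothing in the labels says whether the 2 libraries of a group came from separate animals, so p-values cover no more than library-to-library spread. How the cells were separated, whether they were cultured and how old the animals were is not given in the sources used here.

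White blood cells leave the blood in steps. Selectins on the vessel wall bind sugar-bearing ligands and let cells roll, and immunoglobulin-family molecules such as ICAM-1 and VCAM-1 then bind leukocyte integrins and hold the cells fast. P-selectin protein is stored ready-made in granules of endothelial cells and of platelets, whereas E-selectin is made after stimulation; ICAM-2 is present on resting endothelium. In cultured endothelial cells, TNF and interleukin-1 raise transcription of several of these genes through the transcription factor NF-kB.

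Promoter sequence is shown for Icam1, Sele and Selp, the 3 members found in the promoter table, so that binding-site-like letters before their start sites can be seen. These 3 were not picked by how they responded, and no link between letters and response was tested. Each line is the stretch of 250 bases before the start site in RefSeq for GRCm38.p6, 5′ to 3′. Capitals mark matches to the motifs searched.
Icam1, chr9:21015690-21015939, plus strand: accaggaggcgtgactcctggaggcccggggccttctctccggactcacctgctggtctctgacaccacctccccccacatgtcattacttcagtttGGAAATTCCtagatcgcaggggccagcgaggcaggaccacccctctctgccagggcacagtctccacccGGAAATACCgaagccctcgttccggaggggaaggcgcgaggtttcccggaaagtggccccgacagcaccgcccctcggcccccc
Sele, chr1:164047984-164048233, plus strand: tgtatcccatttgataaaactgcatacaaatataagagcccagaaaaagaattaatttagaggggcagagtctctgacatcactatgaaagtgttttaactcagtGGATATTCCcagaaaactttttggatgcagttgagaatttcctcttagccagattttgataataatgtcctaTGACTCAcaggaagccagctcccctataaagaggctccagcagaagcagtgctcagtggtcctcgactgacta
Selp, chr1:164115014-164115263, plus strand: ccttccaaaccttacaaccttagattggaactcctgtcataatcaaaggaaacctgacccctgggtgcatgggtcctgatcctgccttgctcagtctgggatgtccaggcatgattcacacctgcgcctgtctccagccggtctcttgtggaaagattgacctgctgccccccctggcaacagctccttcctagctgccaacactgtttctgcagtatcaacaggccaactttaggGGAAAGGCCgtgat

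The motifs searched on both strands were GGNNNTTCC (kappaB-like, the kind of site NF-kB binds) and 3 shorter ones. The motif of AP-1 was written TGACTCA. That of the GATA family of factors was written GATAAG. The E-box was written CACGTG. Icam1 held the palindrome GGAAATTCC, which matches on both strands at 153 to 145 bases before the start, and GGAAATACC on the minus strand at 84 to 76 bases. Sele held GGATATTCC at 145 to 137 bases and the AP-1 letters at 73 to 67 bases before the start. Selp held GGAAAGGCC, a match on the minus strand, at 14 to 6 bases. Apart from the palindrome, no match overlapped another, and these windows held neither of the other motifs. Of 32851 promoter windows of the same length in the table, 15.7% held the kappaB-like motif, 4.46% the AP-1 motif, 6.02% the E-box and 6.55% the remaining one. The start that the table gives for Sele lies inside the annotated span of the gene (chromosome 1, 164039614 to 164058487). Selp lies on the same chromosome at 164115264 to 164150026, Icam1 on chromosome 9 at 21015940 to 21028814, Vcam1 on chromosome 3 at 116110020 to 116129688 and Icam2 on chromosome 11 at 106377656 to 106388139.

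Before the members' values, the libraries' own makeup was read from marker genes. Counting 1 transcript row per gene, depth was 25.91 to 45.49 M reads for endothelial, 10.18 to 19.42 M for myocyte and 25.63 to 31.94 M for fibroblast libraries. The summed level of 12 endothelial markers was 11393 to 14770 CPM (read counts scaled to library size) in the endothelial libraries, 1186 to 3289 CPM in those of myocytes and 596 to 792 CPM in those of fibroblasts. In fibroblast libraries most of that sum came from the markers Kdr, Tek and Eng. In the first sham fibroblast library of 6 hours these had 193, 272 and 251 CPM, while the markers Cdh5 and Erg had 7.41 and 1.36 CPM. The 10 cardiomyocyte markers summed to 81389 to 99614 CPM in myocyte libraries, and the 9 fibroblast markers to 29649 to 40955 CPM in fibroblast libraries. Myocyte libraries also carried 587 to 1076 CPM of 10 macrophage markers, against 27.5 to 47.3 CPM in endothelial and 29.9 to 66.5 CPM in fibroblast libraries. The second RT fibroblast library of 6 hours stood apart from its partner in most of the endothelial markers. The first RT myocyte library of 7 days and the first sham myocyte library of 28 days also differed from their partners, and results that rest on any of these are given with and without them.

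Without irradiation, endothelial libraries had the highest level of every member, and the order of the members differed between myocyte and fibroblast libraries. The part of endothelial and macrophage RNA in the myocyte libraries' values was not tested. In sham endothelial libraries, the median level per length was 178 RPKM (reads scaled to transcript length and library size) for Icam2, 76.0 RPKM for Vcam1, 69.8 RPKM for Icam1, 7.12 RPKM for Sele and 7.09 RPKM for Selp (n = 6 libraries). The ranges of Vcam1 (63.2 to 79.9 RPKM) and Icam1 (60.9 to 79.0 RPKM) overlapped in this order, as did those of Sele (5.30 to 9.85 RPKM) and Selp (5.32 to 7.97 RPKM), while Icam2 (145 to 203 RPKM) lay above all. The immunoglobulin-family members thus stood well above both selectins in sham endothelial libraries.

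In sham myocyte libraries, Icam2 had the highest median at 17.7 RPKM (13.2 to 29.0 RPKM), followed by Icam1 at 11.4 RPKM (9.25 to 31.2 RPKM) and Vcam1 at 7.96 RPKM (7.17 to 14.7 RPKM). Both selectins were low there, with medians of 0.714 RPKM for Sele (0.499 to 1.44 RPKM) and 0.334 RPKM for Selp (0.133 to 0.888 RPKM), and neighbours in this order overlapped except Vcam1 and Sele. In sham fibroblast libraries the order was another: Vcam1 led at 34.3 RPKM (30.2 to 37.5 RPKM), above Icam1 at 24.9 RPKM (23.3 to 28.6 RPKM) with no overlap. Sele followed at 0.583 RPKM (0.536 to 0.701 RPKM), Icam2 at 0.355 RPKM (0.135 to 0.427 RPKM) and Selp at 0.154 RPKM (0.115 to 0.277 RPKM), with only Icam2 and Selp overlapping.

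**Figure D1:**
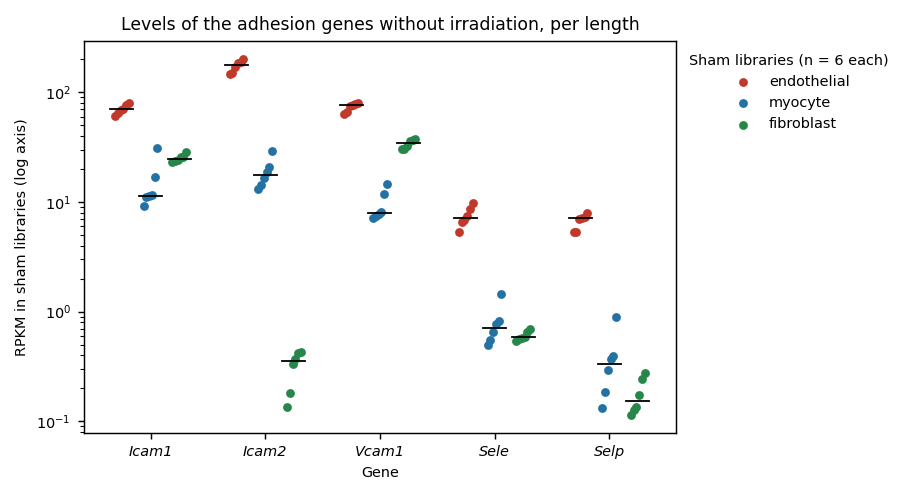
RPKM on a log axis of the 5 adhesion genes in sham libraries, 1 point per library (n = 6 per cell type) and a bar at the median. Endothelial libraries sit highest for every gene, and Icam2 has medians of 178 RPKM in endothelial and 0.355 RPKM in fibroblast libraries.

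All 5 members passed the test in each of the 3 sham comparisons, where 79.3% of all genes passed between endothelial and myocyte, 74.2% between endothelial and fibroblast and 81.3% between myocyte and fibroblast libraries, so the count itself is near what any gene showed. The sizes differed widely between members. Sham endothelial over sham fibroblast was 578-fold for Icam2 (log2 fold change 9.17 ± 0.29, SE), 38.1-fold for Selp, 11.9-fold for Sele, 2.72-fold for Icam1 and 2.11-fold for Vcam1. Sham endothelial over sham myocyte ran from 3.66-fold for Icam1 to 14.0-fold for Selp. Between sham myocyte and sham fibroblast libraries, Icam1 (log2 fold change -0.43 ± 0.12, adjusted p = 0.00239 in edgeR) and Vcam1 (-1.45 ± 0.12) were lower in those of myocytes. Icam2 (6.39 ± 0.29), Selp (1.44 ± 0.28) and Sele (0.73 ± 0.25, adjusted p = 0.00869 in edgeR) were higher in the myocyte libraries. The call of Sele there was lost without the first sham myocyte library of 28 days (adjusted p = 0.0526) and without the second of 7 days (0.0550).

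Members were also set against the summed endothelial markers of the same library, as a description. In fibroblast libraries most of that sum came from Kdr, Tek and Eng, so percentages there cannot be set beside those of endothelial libraries. Icam2 amounted to 1.79 to 2.68% of that sum in the 12 endothelial, 1.20 to 4.84% in the 12 myocyte and 0.0337 to 0.582% in the 12 fibroblast libraries. Vcam1 amounted to 2.32 to 4.64% of it in endothelial, 1.38 to 3.15% in myocyte and 20.5 to 38.2% in fibroblast samples, and Icam1 to 1.67 to 4.84%, 1.99 to 5.57% and 11.8 to 58.0% in the same order. The part that endothelial RNA in the myocyte libraries plays in their values was not tested. In bulk samples, fewer cells of a type and less RNA per cell cannot be told apart.

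As a check of the labels, the p53 targets Cdkn1a, the gene of the cell cycle inhibitor p21, and Mdm2, which codes for the ligase that degrades p53, were read in the same libraries. In endothelial cells at 6 hours Cdkn1a averaged 1286 ± 34.8 CPM after RT and 338 ± 106 CPM after sham (SD, n = 2 each). Both RT libraries lay above both sham libraries for Cdkn1a and Mdm2 in all 9 comparisons except Mdm2 in myocytes at 7 days.

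**Figure D2:**
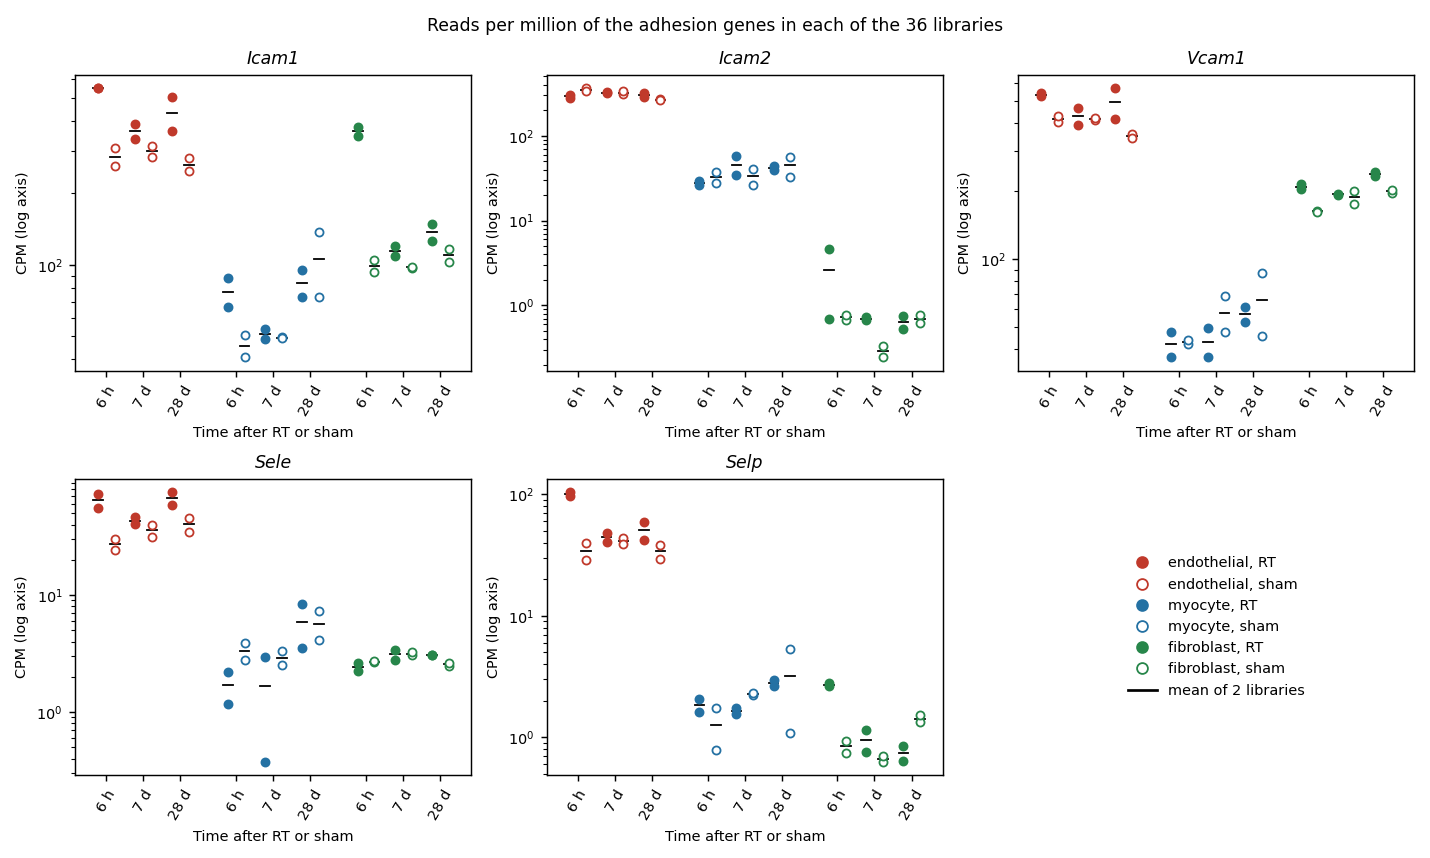
CPM on a log axis of each adhesion gene in each of the 36 libraries, by cell type and time, with filled points for RT, open points for sham and a bar at the mean of 2 libraries. In the endothelial panels at 6 hours both RT points of Icam1, Vcam1, Sele and Selp lie above both sham points, and Selp has means of 100.4 CPM after RT and 34.2 CPM after sham.

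In irradiated endothelial cells both selectins and Icam1 rose at 6 hours. In that comparison 11.3% of 14919 genes passed, 6.1% higher and 5.23% lower, and 3 of the 5 members passed, all higher. Selp, the rolling receptor kept in storage granules, had 97.3 and 104 CPM in RT libraries, against 28.9 and 39.4 CPM in sham libraries. The groups did not overlap, and the fitted change was 2.87-fold (log2 fold change 1.52 ± 0.18, adjusted p = 0.000157 in edgeR). The share of all genes whose groups did not overlap is not given, here or below. Sele, the inducible rolling receptor, had 73.0 and 55.4 CPM in RT libraries, against 29.9 and 24.4 CPM in sham libraries. It rose 2.28-fold (1.19 ± 0.19, adjusted p = 0.00174 in edgeR), with the RT libraries less alike than those of Selp. Icam1, a ligand of the integrins LFA-1 and Mac-1, had 551 and 552 CPM in RT libraries, against 309 and 259 CPM in sham libraries, a rise of 1.88-fold (0.91 ± 0.16, adjusted p = 0.00285 in edgeR). These 3 calls held in every alternative tried, each library left out included.

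Vcam1 and Icam2 did not pass in endothelial cells at 6 hours. Vcam1, the ligand of the integrin VLA-4, had 528 and 542 CPM in RT libraries, against 404 and 429 CPM in sham libraries (log2 fold change 0.32 ± 0.14, adjusted p = 0.164 in edgeR). Icam2 was the single member whose RT libraries both lay below the sham ones, with 306 and 279 CPM after RT, against 366 and 334 CPM after sham (-0.30 ± 0.09, adjusted p = 0.0524 in edgeR). Its call depended on the processing: it passed with RLE size factors (0.0477), with DESeq2 (0.0149), without a low-count filter (0.0322) and without the second sham library (0.0301). Vcam1 passed only without a low-count filter (0.0330), among the alternatives tried. Of the 12 endothelial markers, 2 were lower at 6 hours and none was higher, and their sum was 11393 and 12767 CPM after RT, against 14451 and 13226 CPM after sham. The share of Icam2 in that sum was 2.68 and 2.19% after RT, against 2.53 and 2.53% after sham.

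Markers of endothelial subtypes moved in the same libraries as Icam1, Sele and Selp. Of 6 arterial markers 4 fell and none rose, with sums of 838 and 830 CPM after RT, against 1091 and 1069 CPM after sham. Of 4 venous markers 2 fell and 1 rose, with sums of 792 and 878 CPM after RT, against 1049 and 1229 CPM after sham. Of 4 lymphatic markers tested 2 rose and none fell, with sums over 5 genes of 574 and 740 CPM after RT, against 523 and 603 CPM after sham. Of 9 fibroblast markers 2 rose, with sums of 2125 and 1976 CPM after RT, against 1577 and 2033 CPM after sham. The part of these shifts in the members' values was not tested.

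Cells that could bring such transcripts from the blood were followed in the same libraries. The 7 platelet markers, of interest because platelets carry P-selectin, summed to 27.3 and 26.0 CPM in endothelial RT libraries of 6 hours, against 24.3 and 24.1 CPM in sham libraries, and none passed the test. Ptprc, the pan-leukocyte gene, had 3.27 and 3.11 CPM after RT, against 2.47 and 2.18 CPM after sham. The neutrophil markers summed to 1.41 and 3.18 CPM after RT, against 1.31 and 0.409 CPM after sham, with 1 to 5 of the 8 genes at 0. The macrophage markers summed to 38.3 and 47.3 CPM after RT, against 37.8 and 44.9 CPM after sham. Of them 1 was called, Cd14, named after its values were seen, with 7.13 and 5.81 CPM after RT, against 3.65 and 3.24 CPM after sham. Their part in the members' values was not tested.

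At 7 days no member passed in endothelial cells. By edgeR 0 of 5 passed, where 1.82% of all genes did; 0 had an unadjusted p below 0.05, and DESeq2 and limma also called 0. Icam1 had 391 and 336 CPM in RT libraries, against 282 and 316 CPM in sham libraries (log2 fold change 0.27 ± 0.16, adjusted p = 0.669 in edgeR). Selp had 48.2 and 40.1 CPM after RT, against 43.4 and 39.0 CPM after sham (0.09 ± 0.18). Sele (0.26 ± 0.19), Vcam1 (0.03 ± 0.14) and Icam2 (-0.01 ± 0.09) did not pass either.

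At 28 days the endothelial values were higher after RT again, though less firmly. In that comparison 9.97% of genes passed, 5.72% higher and 4.25% lower, and Icam1, Vcam1 and Sele were called, all higher. Icam1 had 363 and 507 CPM in RT libraries, against 280 and 246 CPM in sham libraries (log2 fold change 0.73 ± 0.16, adjusted p = 0.0127 in edgeR). Sele had 58.6 and 75.4 CPM after RT, against 45.7 and 34.5 CPM after sham (0.75 ± 0.19, adjusted p = 0.0276 in edgeR). Vcam1 had 418 and 572 CPM after RT, against 360 and 343 CPM after sham (0.50 ± 0.14, adjusted p = 0.0384 in edgeR). For all 3 the second RT library was the higher. For Icam1 and Vcam1 the RT libraries also lay further apart than the sham libraries. For Sele the SD was 11.9 CPM around a mean of 67.0 CPM after RT, against 7.91 CPM around 40.1 CPM after sham. The groups did not overlap for these 3, nor for Selp and Icam2, which were not called. The share of all genes without overlap is not given here. Selp had 42.1 and 59.4 CPM after RT, against 38.2 and 29.4 CPM after sham (0.59 ± 0.18, adjusted p = 0.0593 in edgeR). It passed with DESeq2 (0.0148). Icam2 had 320 and 284 CPM after RT, against 270 and 265 CPM after sham (0.18 ± 0.09, adjusted p = 0.257 in edgeR).

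The 28-day calls rested on few libraries. Fitted on the comparison's own 4 libraries alone, 0 members passed (adjusted p = 0.0673 for Icam1, 0.0678 for Sele, 0.122 for Vcam1 in edgeR). That fit called 793 of all genes, against 1487 in the main fit. Without the second RT library the adjusted p was 0.118 for Icam1, 0.212 for Sele and 0.318 for Vcam1, where the log2 fold change of Icam1 was 0.45 and that of Vcam1 0.24. Without the second sham library it was 0.140 for Icam1, 0.252 for Sele and 0.233 for Vcam1, and without the first sham library 0.130 for Vcam1. All of these fold changes kept their direction. The platelet markers moved in the same libraries: 4 of 7 were lower and none higher after RT, with sums of 22.5 and 31.0 CPM after RT, against 38.3 and 75.2 CPM after sham, and their part in the value of Selp was not tested. Other markers called lower were 2 of 12 endothelial, 2 of 6 arterial, 2 of 10 cardiomyocyte and 1 of 9 fibroblast markers. Higher were 1 of 4 venous and 1 of 9 mural markers. The part of these shifts in the members' values was not tested.

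**Figure D3:**
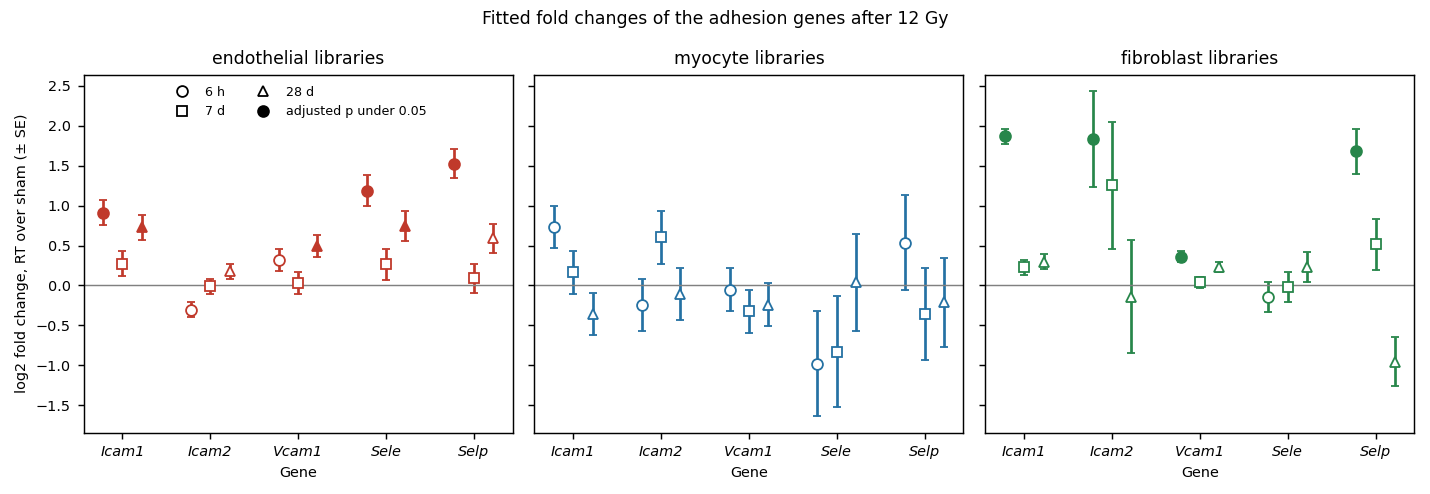
Fitted log2 fold change of RT over sham with its standard error for the 5 adhesion genes, 1 panel per cell type, with circles at 6 hours, squares at 7 days and triangles at 28 days, filled where the adjusted p was under 0.05. Filled points are 3 at 6 hours and 3 at 28 days in endothelial libraries, 4 at 6 hours in fibroblast libraries and none in myocyte libraries.

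Fibroblasts showed the largest fitted change of any member, a rise of Icam1 at 6 hours. In that comparison 24.6% of 14998 genes passed, 12.3% higher and 12.3% lower, and 4 of 5 members passed, all higher. Icam1 had 346 and 379 CPM in RT fibroblast libraries, against 104 and 93.5 CPM in sham libraries. The rise was 3.65-fold (log2 fold change 1.87 ± 0.09, adjusted p = 4.07e-09 in edgeR), and at 90.5 ± 5.90 RPKM after RT, against 24.5 ± 1.76 RPKM after sham (SD, n = 2 each), irradiated fibroblasts exceeded the highest sham endothelial library for this gene. Vcam1, already high in fibroblasts, had 215 and 204 CPM after RT, against 164 and 162 CPM after sham (0.36 ± 0.07, adjusted p = 0.00149 in edgeR). The groups did not overlap for either gene. The call of Vcam1 was lost only when all 36 libraries shared 1 fit (adjusted p = 0.322), among the alternatives tried.

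Markers of several cell types shifted in the same fibroblast libraries of 6 hours. Of 9 fibroblast markers 5 fell and none rose, with sums of 29964 and 29649 CPM after RT, against 34747 and 37837 CPM after sham. Of 9 mural markers 6 fell and none rose, with sums of 1206 and 1131 CPM after RT, against 1650 and 1594 CPM after sham. Of 6 mesothelial markers 2 rose and 1 fell, with sums of 2472 and 2787 CPM after RT, against 2128 and 2438 CPM after sham. Of 12 endothelial markers 1 rose and 2 fell. Of 8 macrophage markers tested 1 rose, Cd14, again named after its values were seen, with 15.4 and 17.0 CPM after RT, against 3.91 and 3.16 CPM after sham. The part of these shifts in the members' values was not tested.

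Selp was low in fibroblasts yet higher after RT at 6 hours, with 2.79 and 2.64 CPM in RT libraries, against 0.748 and 0.938 CPM in sham libraries. The rise was 3.20-fold (log2 fold change 1.68 ± 0.28, adjusted p = 0.000634 in edgeR), from counts of 18 to 89 reads per library over the 12 fibroblast libraries. Sele had 2.25 and 2.64 CPM after RT, against 2.68 and 2.71 CPM after sham, and did not pass (-0.15 ± 0.19, adjusted p = 0.618 in edgeR). Within the same libraries, one selectin gene rose and the other did not pass the test.

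The call of Icam2 in fibroblasts at 6 hours came from 1 library. Icam2 had 0.689 and 4.58 CPM in RT libraries, against 0.680 and 0.765 CPM in sham libraries, so that the first RT library lay among the sham ones (log2 fold change 1.83 ± 0.60, adjusted p = 0.0397 in edgeR). Without the second RT library the log2 fold change was -0.07 (adjusted p = 0.948), and without the first it was 2.65. The call was also lost without either sham library (adjusted p = 0.147 without the first and 0.138 without the second). Of the 12 endothelial markers, Cdh5, Tie1, Flt1, Cldn5, Egfl7, Ptprb, Robo4, Erg and Ecscr had their highest fibroblast level in that second RT library. Kdr, Tek and Eng, which made up most of the marker sum in fibroblast libraries, did not. The part of these markers' shifts in the value of Icam2 was not tested. Kdr and Tek had 133 and 208 CPM in that library, against 193 and 235 CPM (Kdr) and 272 and 286 CPM (Tek) in sham libraries. Of the 12, 1 was called higher in fibroblasts at 6 hours and 2 were called lower. Cdh5 and Erg were chosen here after their values were seen. Cdh5, a junction gene, had 46.2 CPM there and 3.13 CPM in the first RT library, against 7.41 and 6.71 CPM in sham libraries. Erg, an endothelial transcription factor gene, had 6.34 CPM there and 1.32 CPM in the first RT library, against 1.36 and 1.32 CPM in sham libraries. Selp did not follow that pattern and was as high in the first RT library as in the second; without the second library its log2 fold change was 1.72 (adjusted p = 0.00368 in edgeR), and Icam1 kept 1.81 (adjusted p = 5.8e-08).

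**Figure D4:**
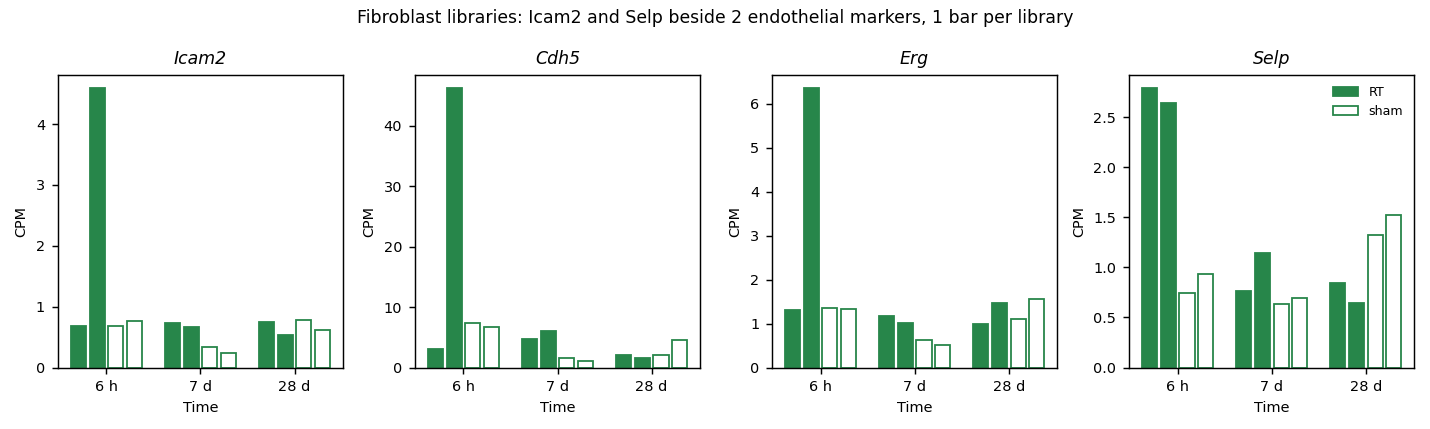
CPM of Icam2, the endothelial markers Cdh5 and Erg, and Selp in the 12 fibroblast libraries, 1 bar per library, filled for RT and open for sham. The 2 markers were chosen from 12 after their values were seen. The second RT library of 6 hours stands out for Icam2 (4.58 CPM), Cdh5 (46.2 CPM) and Erg (6.34 CPM), whereas Selp is 2.79 and 2.64 CPM in the 2 RT libraries of that time.

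At the later times no member passed in fibroblasts. At 7 days 1.84% of genes passed (1.51% higher and 0.327% lower) and 0 of 5 members did by edgeR, DESeq2 or limma. An unadjusted p below 0.05 was held by 1918 of all 14998 genes and by 1 member, Icam1. It had 108 and 120 CPM after RT, against 96.6 and 98.2 CPM after sham (log2 fold change 0.23 ± 0.09, adjusted p = 0.317 in edgeR). At 28 days 3.29% of genes passed (2.48% higher and 0.813% lower) and again 0 members did by edgeR, though DESeq2 called 2 and limma 1. Of all genes, edgeR called 494, DESeq2 543 and limma 441. By edgeR 3 of 5 members had an unadjusted p below 0.05, as did 2127 of 14998 genes. Icam1 had 148 and 126 CPM after RT, against 116 and 103 CPM after sham (0.30 ± 0.09, adjusted p = 0.118 in edgeR and 0.0469 in DESeq2). Vcam1 had 243 and 233 CPM after RT, against 196 and 203 CPM after sham (0.23 ± 0.07, adjusted p = 0.0906 in edgeR and 0.0361 in DESeq2). Selp was on the other side at this time, with 0.849 and 0.640 CPM after RT, against 1.33 and 1.52 CPM after sham (-0.96 ± 0.31, adjusted p = 0.136 in edgeR). Sele had 3.04 and 3.06 CPM after RT, against 2.50 and 2.62 CPM after sham (0.23 ± 0.19), and Icam2 stayed below 1 CPM in each library of 7 and 28 days.

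In myocyte libraries no member passed at any time. Of 14115 genes, 0.326% passed at 6 hours, 0.085% at 7 days and 0.0354% at 28 days, and the common biological coefficient of variation was 0.172, against 0.0958 in endothelial and 0.0677 in fibroblast libraries. By edgeR, DESeq2 and limma 0 of 5 members were called at each time. Of 14115 genes, 571, 1973 and 526 had an unadjusted edgeR p below 0.05 at 6 hours, 7 days and 28 days. The number of members with such a p was 1 at 6 hours and 0 at 7 and 28 days. That 1 was Icam1, with 66.2 and 87.9 CPM in RT libraries of 6 hours, against 40.8 and 50.7 CPM in sham libraries (log2 fold change 0.73 ± 0.27, adjusted p = 0.931 in edgeR). Both RT libraries lay above both sham libraries, and the share of all genes so separated is not given here. In a fit of these 4 libraries alone Icam1 passed (adjusted p = 0.000845 in edgeR), but that fit called 552 genes, against 46 in the main fit. Sele at 6 hours had 1.17 and 2.21 CPM after RT, against 2.78 and 3.87 CPM after sham (-0.98 ± 0.66).

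Single libraries moved the later myocyte values. At 28 days the first sham library had the highest myocyte levels of Icam1 (138 CPM, against 73.2 CPM in the second sham library and 94.7 and 73.5 CPM in RT libraries), Vcam1 (86.6 CPM) and Selp (5.30 CPM). Its neutrophil markers summed to 32.5 CPM, against 2.46 to 13.4 CPM in the other myocyte libraries, and their part in the members' values was not tested. Without it, the log2 fold change of Icam1 at 28 days was 0.19, against -0.35 ± 0.26 with it, and that of Selp 1.33, against -0.21 ± 0.55. Selp had only 12 to 54 reads per myocyte library. At 7 days the first RT library had 57.4 CPM of Icam2 and 0.376 CPM of Sele, against 34.2 and 2.97 CPM in the second. With both RT libraries, the log2 fold change at 7 days was 0.60 ± 0.33 for Icam2 (adjusted p = 0.367 in edgeR) and -0.83 ± 0.69 for Sele (adjusted p = 0.503 in edgeR). Without the first RT library it was 0.025 for Icam2 and -0.013 for Sele. Without the second, Icam2 (1.01, adjusted p = 0.00541 in edgeR) and Sele (-2.73, adjusted p = 0.0113 in edgeR) passed, the lone library being assumed to vary like the other groups.

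Whether the RT effect changed between times was tested with an F-test over the 3 contrasts of a cell type. In endothelial libraries 6.26% of genes passed and 1 of 5 members did: Selp (adjusted p = 0.0120 in edgeR), whose log2 fold changes were 1.52, 0.09 and 0.59 at 6 hours, 7 days and 28 days. That call was lost without the first sham library of 6 hours (0.0606) and without the second RT library of 6 hours (0.0528). DESeq2 called 3 members. In fibroblast libraries 9.89% of genes passed and 2 members did: Icam1 (adjusted p = 3.14e-06), with 1.87, 0.23 and 0.30, and Selp (adjusted p = 0.00297), with 1.68, 0.51 and -0.96. Both fibroblast calls held with each library left out. In myocyte libraries 0.0% of genes passed in edgeR, and 0 members did in edgeR, DESeq2 or limma. An unadjusted edgeR p below 0.05 was held by 510 of 14115 genes and by 1 member.

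Whether the effect differed between cell types was tested in a fit of all 36 libraries. At 6 hours 2.11% of 16234 genes passed and 0 members did by edgeR, with Icam1 (adjusted p = 0.0578) and Sele (0.0589) nearest. DESeq2 called 2 members and limma 3. By edgeR 3 members had an unadjusted p below 0.05, as did 2114 of all genes. For Sele the log2 fold changes at 6 hours were 1.19 (endothelial), -0.98 (myocyte) and -0.15 (fibroblast). At 7 days 0.363% of genes passed and 0 members did, with 0 at an unadjusted p below 0.05 and 0 by DESeq2 and limma. At 28 days 0.37% of genes passed and 0 members did, with 3 at an unadjusted p below 0.05 and 0 by DESeq2 and limma. Of 16234 genes 1301 had such an unadjusted p in edgeR. The test covers the 3 cell types together, and fibroblasts against endothelial cells alone were not tested. A larger rise of Icam1 in fibroblasts than in endothelial cells is thus not shown here.

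Partners of the members that white blood cells carry had low levels in endothelial and fibroblast libraries, whereas partners that many cell types carry had higher ones. Of 16 partners, the filter kept 14 for endothelial, 15 for myocyte and 11 for fibroblast libraries. Itgb2, the beta chain of LFA-1 and Mac-1, had sham medians of 2.75 CPM (endothelial), 12.0 CPM (myocyte) and 0.554 CPM (fibroblast; n = 6 each). Selplg, which codes for the P-selectin ligand PSGL-1, had 0.606, 7.60 and 0.288 CPM in the same order. Itgb1, the beta chain of VLA-4 and of many matrix receptors, had 1593, 593 and 981 CPM. Cd44, a hyaluronan receptor that can also bind E-selectin, had 33.0, 25.7 and 54.1 CPM.

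Of the partners, Cd44 was the one called higher. It rose in fibroblasts at 6 hours, with 105 and 102 CPM after RT, against 55.0 and 60.6 CPM after sham (log2 fold change 0.84 ± 0.07, adjusted p = 1.91e-06 in edgeR), and in endothelial cells at 28 days, with 49.0 and 55.1 CPM after RT, against 35.1 and 31.8 CPM after sham (0.64 ± 0.11, adjusted p = 0.00351 in edgeR). The endothelial call was lost without the second sham library. In fibroblasts at 6 hours, where 12.3% of all genes fell, 3 of 11 partners did: Itga9 (-0.43), Itga4 (-0.57), the alpha chain of VLA-4, and Glg1 (-0.23), a Golgi protein known as an E-selectin ligand. That count was 1 without the second sham library or without either RT library. Median log2 fold changes over all genes tested were 0.00896 in endothelial cells at 6 hours, -0.00421 at 28 days and -0.00214 in fibroblasts at 6 hours. The partners' median was -0.11 in fibroblasts at 6 hours, 0.09 in endothelial cells at 6 hours, where 0 of 14 passed, and 0.05 at 28 days, where 1 of 14 did.

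Other endothelial adhesion and transmigration genes moved in both directions. Of all genes, 6.1% rose and 5.23% fell in endothelial cells at 6 hours, and 5.72% rose and 4.25% fell at 28 days. In fibroblasts 12.3% rose and 12.3% fell at 6 hours. At 7 days 1.51% rose and 0.327% fell there, and at 28 days 2.48% rose and 0.813% fell. In endothelial cells at 6 hours, of 17 tested, 1 rose and 3 fell (median log2 fold change -0.09). Mcam, an adhesion molecule of vessel walls, rose to 520 and 524 CPM after RT, against 423 and 371 CPM after sham (0.35 ± 0.09, adjusted p = 0.0284 in edgeR). The junction genes Jam3 (-0.53 ± 0.13), Jam2 (-0.43 ± 0.11) and Esam (-0.41 ± 0.11) fell. With 1 library left out, the count that rose was 0 unless that was the first sham library. The count that fell was then 2 with the first RT library left out, 1 with the second RT library and 0 with the first sham library. At 28 days 2 rose, Cd34 (0.53 ± 0.10) and Cx3cl1 (0.44 ± 0.12), which codes for the membrane-bound chemokine fractalkine. At that time 2 fell, Jam2 (498 and 546 CPM after RT, against 860 and 900 CPM after sham, -0.75 ± 0.11) and Jam3 (-0.47 ± 0.13), and the median over the 17 was -0.01. Either count was 1 without either sham library or the second RT library, and the count that fell was also 1 without the first RT library. In fibroblasts at 6 hours 1 of 17 rose, F11r (0.82 ± 0.12), the junction gene for JAM-A, and 4 fell, among them Aoc3 (-0.59 ± 0.08), Alcam (-0.76 ± 0.12) and Cd99l2 (-0.30 ± 0.06), with a median of 0.07. Without the first RT library 4 rose, and without the first sham library 2 did. At 7 days F11r alone passed, higher (0.55 ± 0.13), and at 28 days Cx3cl1 was higher (0.64 ± 0.12) and Cd34 lower (-0.26 ± 0.06). With 1 library left out, the count higher ran from 0 to 2 at 7 days and from 0 to 1 at 28 days, and the count lower from 0 to 1 at 28 days.

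Genes for the cargo and release of the storage granules that hold P-selectin were mostly not called in endothelial cells. Of all genes tested there, 6.1% rose and 5.23% fell at 6 hours, and 5.72% rose and 4.25% fell at 28 days. At 6 hours 1 of 12 rose, Angpt2, a granule-stored ligand of the receptor TIE2, with 59.5 and 51.4 CPM after RT, against 32.3 and 30.9 CPM after sham (log2 fold change 0.77 ± 0.12, adjusted p = 0.00103 in edgeR), and 1 fell, Vamp3 (-0.37 ± 0.09), a membrane fusion gene. The median over the list was 0.02, and the count that fell was 2 with the first RT library left out and 0 with the first sham library left out. At 28 days Angpt2 was again the 1 gene called, with 86.9 and 67.1 CPM after RT, against 45.3 and 50.3 CPM after sham (0.68 ± 0.12, adjusted p = 0.00254 in edgeR), and the median was 0.07; without the first RT library 2 rose. In fibroblasts at 6 hours 12.3% of all genes rose and 12.3% fell. Of the 12 granule genes 1 rose, Rab27a (1.05 ± 0.29), and 5 fell, among them Plat (-0.36 ± 0.06), Edn1 (-0.57 ± 0.14) and Rab3d (-0.21 ± 0.06), with a median of -0.12. With each library left out, 2 to 3 fell, and 2 rose without the first RT library and 0 without any other.

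The part of the TNF, interleukin-1 and NF-kB route in the members' values was not tested. This route, known to raise several of these genes in cultured endothelial cells, was called most often in fibroblasts at 6 hours. Of 16 tested genes 11 rose and none fell, where 12.3% of all genes rose, with a median log2 fold change of 0.42, where the median over all genes was -0.00214. With each library left out 9 to 10 rose. Tnfaip3, an NF-kB feedback gene, rose to 61.3 and 64.7 CPM after RT, against 27.2 and 23.6 CPM after sham (1.31 ± 0.12, adjusted p = 2.73e-06 in edgeR). The subunit genes Relb (1.21 ± 0.12) and Nfkb2 (0.96 ± 0.07) and the TNF receptor gene Tnfrsf1a (0.98 ± 0.07) rose too. In endothelial cells at 6 hours, where 6.1% of all genes rose, 2 of 19 rose and none fell (median 0.10, all genes 0.00896): Chuk (0.50 ± 0.13), which codes for the kinase IKK-alpha, and Il1b (1.61 ± 0.46), at 1.10 and 2.35 CPM after RT, against 0.537 and 0.580 CPM after sham. The count of 2 was not kept with any library left out: 1 rose and 1 fell without the first RT library, and 0 rose without any other. At 28 days, where 5.72% of all genes rose, 3 of 19 rose in endothelial cells, Nfkb2 (0.61 ± 0.10), Nfkbie (0.95 ± 0.23) and Relb (0.59 ± 0.16), and 2 fell, among them Il1r1 (-0.42 ± 0.08), with a median of 0.12 and -0.00421 over all genes. Without the first RT library 4 rose and 3 fell; without any other library 1 rose and 0 to 1 fell. The same 3, Nfkb2 (0.39 ± 0.07), Nfkbie (0.55 ± 0.12) and Relb (0.50 ± 0.12), were the 3 called in fibroblasts at 28 days, all higher, but with each library left out only 0 to 1 of the list was called there.

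**Figure D5:**
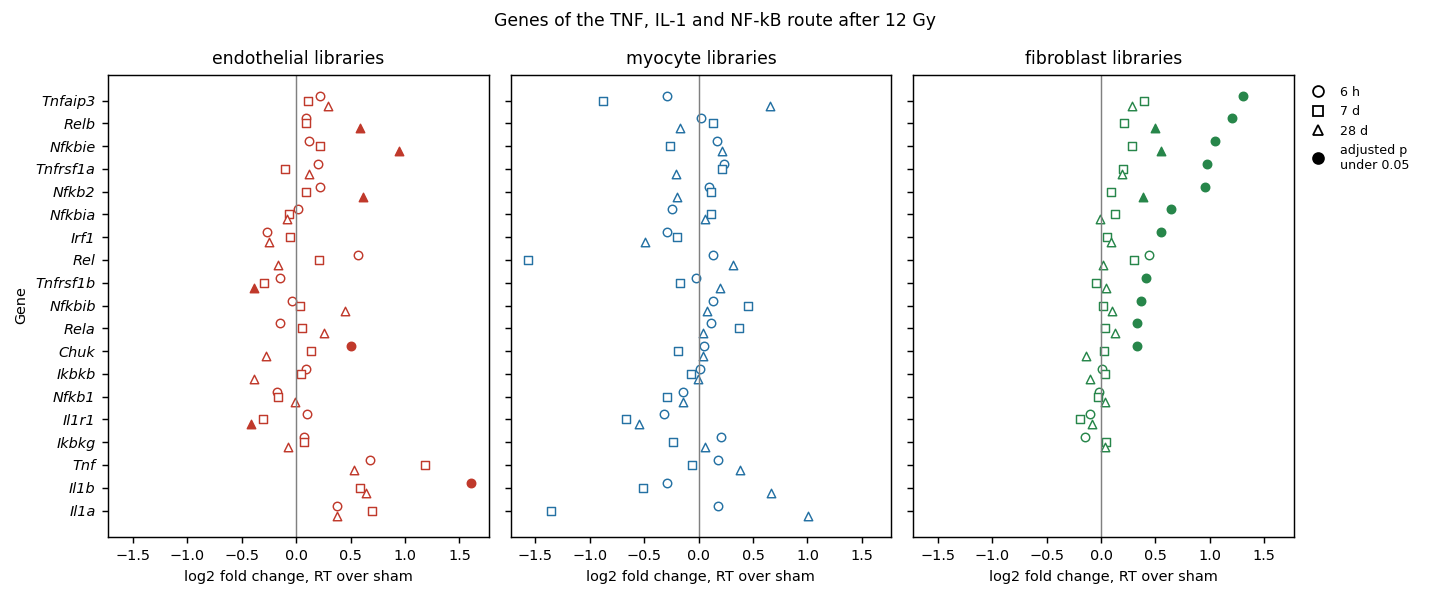
Log2 fold change of RT over sham for the genes of the TNF, interleukin-1 and NF-kB route, 1 panel per cell type, with circles at 6 hours, squares at 7 days and triangles at 28 days, filled where the adjusted p was under 0.05. In fibroblasts 11 genes are filled at 6 hours, all to the right of 0, and no gene is filled in myocytes.

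Over the 4 lists together, 62 genes were tested in endothelial and myocyte libraries and 56 in fibroblast libraries. In endothelial cells at 7 days edgeR called 0, DESeq2 2 and limma 0. Of the 62, 9 had an unadjusted edgeR p below 0.05, as did 1460 of all 14919 genes. In myocytes edgeR and limma called 0 at each time, and DESeq2 called 1 at 7 days and none at the other times. An unadjusted edgeR p below 0.05 was held by 4, 10 and 8 of the 62 at 6 hours, 7 days and 28 days. Of all 14115 genes, 571, 1973 and 526 had such a p in the same order.

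Genes whose CPM pattern was most like that of each member were named by Pearson's r, as a description. Over all 36 libraries, where most of the variation lies between cell types, the nearest gene was Gimap1 for Icam2 (r = 0.998), followed by Emcn and Tspan13, Tmem2 for Selp (0.978), Nhsl2 for Sele (0.976), Atp6v1a for Vcam1 (0.975) and Tmem173 for Icam1 (0.943). Over the 12 endothelial libraries, which share their groups and treatment, the nearest were Camk1 for Icam2 (0.976), Tsku for Selp (0.972), Naa40 for Icam1 (0.953), Ly75 for Vcam1 (0.946) and Dusp18 for Sele (0.923). The third nearest to Selp there was Il1r2 (0.947), the decoy receptor gene of interleukin-1.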

How the data were processed

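The authors deposited, per library, whole-number read counts per RefSeq transcript and a column that the file headers call TPM. Its values equal RPKM computed from those counts (largest difference 1.8e-12), so the deposited column is called RPKM here. The submitters' processing notes name GRCm38 and mm10; which aligner and counter were used is not given in the sources used here. Another 30 read columns in the files were not used. Of 33068 rows, the transcript with the most reads stood for each of 24061 names.

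Each cell type's 12 libraries were fitted in edgeR 4.0.16 (R 4.3.3) as group means, using TMM factors, genes kept by filterByExpr (at least 10 reads in enough libraries and 15 in total) and the quasi-likelihood test. Fits of all 36 libraries gave the comparisons of cell types. Adjusted p-values follow Benjamini and Hochberg over all genes, with a threshold of 0.05. CPM are scaled to the kept rows. Alternatives were RLE, no filter beyond 1 read, a mean of at least 5 CPM, DESeq2 1.42.0, limma 3.58.1 on log2(RPKM + 1) with a pseudocount of 1 (planned on TPM), summed transcripts, a replicate block, the comparison's 4 libraries, all 36 libraries, and each library left out. The fits were tested on simulated data. Besides the 5 members, the text names genes of fixed lists past the threshold, at most 4 per list and comparison by smallest p, and partner and marker genes for their level. Members, lists and tests were chosen with earlier results of these data known. Promoters are RefSeq's, found for 3 of the 5 members. Of the list genes, Cd99 and 2 marker genes were not analysed here. No other gene had the same counts as a member in all libraries.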

Additional observations from a re-analysis of the deposited data

Results flagged for a closer look

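The effect of RT on Selp differed between times in endothelial libraries (F-test, adjusted p = 0.0120 in edgeR), being 2.87-fold at 6 hours, 1.06-fold at 7 days and 1.51-fold at 28 days. The effect on Icam1 differed between times in fibroblast libraries (adjusted p = 3.14e-06), being 3.65-fold at 6 hours, 1.17-fold at 7 days and 1.23-fold at 28 days. The effect on Selp differed between times in fibroblast libraries (adjusted p = 0.00297), being 3.20-fold at 6 hours, 1.43-fold at 7 days and 0.516-fold at 28 days. These fold changes were flagged because the test of the difference between times passed its threshold. The same test was passed by 6.26% of all genes in endothelial and 9.89% in fibroblast libraries. The endothelial call of Selp was lost without the first sham library or the second RT library of 6 hours. No group has more than 2 libraries, so no single library could be flagged by its distance from the rest.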

How the results depend on the processing

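Settings other than leaving a library out kept the count of members called within 1.5 times in most comparisons, with these exceptions. Without a low-count filter the count was 5 in endothelial libraries at 6 hours, 2 in fibroblast libraries at 28 days, 4 in the endothelial test between times, and 3 at 6 hours and 2 at 28 days in the tests between cell types. With DESeq2 it was 3 in the endothelial test between times, 2 in fibroblasts at 28 days and 2 in the 6-hour test between cell types; with limma it was 1 and 3 in those last 2. The 4-library fit called 0 in endothelial cells at 28 days and 1 in myocytes at 6 hours, and the fit of all 36 libraries called 1 in endothelial cells at 28 days. At a mean of at least 5 CPM fewer members were tested, and 2 were called in fibroblasts at 6 hours and 1 between times in fibroblasts. The number of all genes called moved too. In endothelial cells at 6 hours it was 2506 without a filter, against 1690 in the main fit. In fibroblasts at 28 days it was 929 without a filter, 543 with DESeq2 and 441 with limma, against 494. The 4-library fit called 793 in endothelial cells at 28 days, against 1487, and 552 in myocytes at 6 hours, against 46. Totals for other settings in the tests between times and cell types are not given here. With limma the log2 fold change of Icam2 in endothelial cells at 7 days was 0.014, against -0.01 in edgeR; the cause of these moves was not tested.

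With each library left out in turn, the count of members ranged from 0 to 4 in endothelial cells at 28 days, 0 to 3 in the endothelial test between times, 0 to 2 in myocytes at 7 days, 0 to 1 in the myocyte test between times, 0 to 1 at 6 hours and at 7 days between cell types, and 0 to 2 at 28 days. Of the called fold changes of members, 30 values with a library left out kept their call, 9 lost it and 1 reversed; 78 values under other settings kept it and 10 lost it. The reversed call was that of Icam2 in fibroblasts at 6 hours, with log2 fold changes from -0.066 to 2.65. Among values that had not passed, those crossing 0 with a library left out were in endothelial cells at 7 days Icam2 (-0.061 to 0.044), Vcam1 (-0.10 to 0.16) and Selp (-0.052 to 0.23), and in myocytes Vcam1 at 6 hours (-0.23 to 0.099). In myocytes at 28 days they were Icam1 (-0.75 to 0.19), Icam2 (-0.44 to 0.32), Vcam1 (-0.64 to 0.31), Sele (-0.72 to 0.53) and Selp (-0.96 to 1.33). In fibroblasts they were Vcam1 (-0.046 to 0.13) and Sele (-0.17 to 0.12) at 7 days and Icam2 (-0.39 to 0.072) at 28 days. With the replicate number as a block, Vcam1 in endothelial cells at 28 days no longer passed (adjusted p = 0.0527 in edgeR). The labels do not say that a number pairs libraries, and same-numbered RT and sham libraries correlated by -0.267 to 0.285 in their deviations. Counts of 7 to 125 reads limit Icam2 in fibroblasts, and 7 to 104 reads Sele in myocytes. Selp is limited too, by 12 to 54 reads in myocytes and 18 to 89 reads in fibroblasts.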
